A study of Mus musculus with 6 samples.

Results

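A set of 5571 autosomal regions was open in fibroblasts, partly closed in reprogramming intermediates and closed in pluripotent cells. They were selected on measured values out of 223596 regions in all, 218231 of which lay on chromosomes 1 to 19. A member had at least 100 normalised counts in MEF day 0, at least 25 and below 100 at each of days 8, 9 and 10, and below 25 in iPSC. A normalised count is the number of reads in a region divided by the size factor of the library. The values of these 5 libraries chose the members and are therefore given as a description. Day 12 was the only library that did not enter the choice.

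Chromatin accessibility had been measured by Omni-ATAC-seq in female hybrid mouse cells from Musculus mothers with an X-linked GFP reporter and Castaneus fathers. MEF day 0 were embryonic fibroblasts, already transduced with lentiviruses that express the reprogramming factors Oct4, Sox2, Klf4 and c-Myc under doxycycline and sorted for a silent GFP-bearing X chromosome, and had seen no doxycycline yet. Days 8, 9, 10 and 12 were cells under doxycycline and ascorbic acid that carried the surface marker SSEA1, and iPSC came from picked colonies after both were withdrawn. The labels call all 6 libraries GFP-negative. Every time point was 1 library, so no test between time points was possible, no difference had a replicate check, and all intervals cover counting error only. A sorted population is a mixture of cells, and fewer cells with an open region cannot be told apart from a region that is less open in each cell.

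Regions that are open in one cell type only are mostly enhancers, which are short stretches of DNA where transcription factors bind and displace nucleosomes. In fibroblasts such sites are typically held open by factors of the AP-1, TEAD and RUNX families. During reprogramming the somatic sites have to close while the pluripotency factors open their own. The table used here named each region by a row number and a chromosome, so that no gene, motif or sequence is assigned to a region, and the fibroblast label rests on the level in MEF day 0 alone.

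The members were several-fold lower at day 8 than in MEF day 0, stayed within the band of the rule through day 10, were somewhat lower at day 12 and were at their lowest in iPSC. Their median normalised count was 315 in MEF day 0, with quartiles of 173 and 638. The day 8 library had a median of 41.6 with quartiles of 32.6 and 56.1, that of day 9 51.4 with 39.3 and 67.1, and that of day 10 49.8 with 37.1 and 64.8. On day 12 it was 37.8 with 27.0 and 51.3, and iPSC had 12.5 with 7.52 and 17.5. In the 3 earlier intermediates the members were thus close to the median of all autosomal regions, which was 45.2, 43.5 and 41.1 in these libraries. In MEF day 0 that median was 40.2, and in iPSC it was 41.4. From MEF day 0 to iPSC the median member held 157, 46, 72, 63, 42 and 10 reads, and in iPSC 116 members were at the lowest recovered value of 1 read. Low values in iPSC are therefore coarse, and a fold against them is imprecise.

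**Figure D1:**
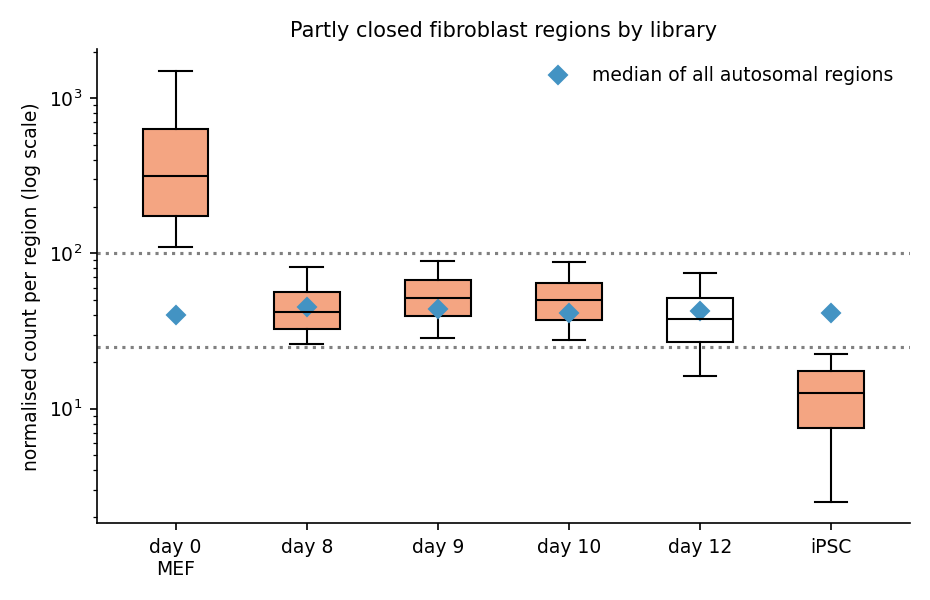
Normalised counts of the 5571 members in each library (log scale; box, quartiles with median; whiskers, 5th to 95th percentile), with the median of all 218231 autosomal regions as diamonds and the levels of 25 and 100 as dotted lines. The members go from a median of 315 in MEF day 0 to between 41.6 and 51.4 at days 8 to 10; the white box marks day 12, which did not choose the members, at 37.8.

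The size of the first step depended on the scaling between libraries, since MEF day 0 had a size factor of 0.498 and the other libraries 0.798 to 1.40, at 22067333 to 32844411 reads in regions. The median member was 7.45-fold higher in MEF day 0 than at day 8 with the deposited values, 3.56-fold higher with equal autosomal totals and 4.34-fold higher after quantile normalisation. The share of autosomal reads that fell in the members needs no size factor. It was 5.19% in MEF day 0 (95% Wilson interval 5.18% to 5.20%) and 1.00% at day 8 (1.00% to 1.01%), a 5.16-fold difference. Both libraries belong to the rule. In all 75356 autosomal regions open in MEF day 0 the share went from 92.9% to 59.9%, a 1.55-fold difference. For the members the next libraries had 1.31%, 1.23% and 1.05% up to day 12, and iPSC had 0.271% (0.269% to 0.273%). The members are 2.55% of the autosomal regions. They were over-represented among reads in MEF day 0 and under-represented in the 5 other libraries.

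The 3 earlier intermediates were not flat. Day 8 was the lowest of the 3 in 2963 members (53.2%), day 10 in 1505 (27.0%) and day 9 in 1103 (19.8%). Among all autosomal regions day 8 was the lowest in 29.4%. From day 8 to day 9, 67.8% of the members were higher, beside 42.5% of all autosomal regions, and the share of reads in the members was 1.31 times as large at day 9 as at day 8. These days belong to the rule, so the same step was taken in the 18508 autosomal regions with at least 100 normalised counts in MEF day 0 and below 25 in iPSC, whatever their level in between. There 67.2% were higher at day 9 than at day 8 (95% exact binomial interval 66.5% to 67.9%) and the share of reads was 1.26 times as large. Among all 75356 autosomal regions open in MEF day 0, 45.5% were higher and the share of reads was 1.02 times as large. Fibroblast regions that ended closed were therefore lower in the day 8 library than in the day 9 library by more than fibroblast regions at large, and whether this belongs to the day or to the library cannot be told apart. The median ratio of day 9 to day 8 in the 18508 regions was 1.23, with 1.40 under equal autosomal totals and 1.36 after quantile normalisation.

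How partial the closing was differed widely between members. The mean of days 8, 9 and 10 was 15.3% of the level in MEF day 0 in the median member, with quartiles of 7.48% and 28.5% and a 5th to 95th percentile of 3.12% to 51.1%. The rule kept the intermediate level within a narrow band, so this spread followed the level in MEF day 0. Members at 100 to 200 normalised counts in MEF day 0 (1723 regions) had a median intermediate level of 48.3 and those at 800 or more (1010 regions) one of 49.8, which were 35.1% and 4.07% of their starting level. Within a member the highest of the 3 days was 1.53 times the lowest in the median, and over 2 times in 899 members (16.1%).

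Single members show what the rule brought together. The region in row 205249 on chromosome 8 had the highest level in MEF day 0 of all members, at 4889.6 normalised counts (95% exact Poisson interval 4697 to 5088). The later libraries, in order of time, had 68.8, 54.3, 93.2, 81.0 and 21.3, so that 1.47% of the starting level was left in the intermediates. Row 127915 on chromosome 2 went from 4459.8 to 41.6, 57.1, 58.4, 49.5 and 22.6. Row 34174 on chromosome 11 had 4279, 32.6, 59.3, 62.4, 40.5 and 18.8 in the same order. These 3 were among the strongest fibroblast regions and still sat inside the same narrow band as the weakest members.

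The other extreme was a plateau that hardly moved. The region in row 88844 on chromosome 17 had 129 normalised counts in MEF day 0, then 94.1, 92.8, 94.0 and 94.5 in the 4 intermediates, and 15.0 in iPSC. Its intermediate level was 72.9% of the starting level and its fall lay between day 12 and iPSC. Row 151706 on chromosome 4 started from 633, had 51.6, 52.1, 51.3 and 52.2 in the intermediates and ended at 23.8. Row 129604 on chromosome 3 started from 847, had 98.6, 97.8, 99.5 and 65.7 in the intermediates and ended at 12.5, with part of its fall by day 12. These 3 regions were the most even over days 8 to 10 among the 1083 members with at least 50 in each.

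The edges of the rule were set by single reads. The level of 100 in MEF day 0 corresponds to 49.8 reads and that of 25 in iPSC to 19.9 reads. Row 4854 was inside with 50 reads in MEF day 0 (100.4 normalised counts) and row 2523 outside with 49 reads (98.4). Row 3022 was inside with 19 reads in iPSC (23.8) and row 969 outside with 20 (25.1). In the band, row 4426 was inside with 25.3 at day 10 and row 14635 outside with 25.0 at day 9, rounded from just below that level. Row 7925 was inside with 99.9 at day 9 and row 56025 outside with 100.3 at day 10. Only 1043 members had exact Poisson intervals that lay inside all levels.

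The band itself could be checked in a library left out of the rule. When day 9 was left out, 6454 regions met the other levels, and 86.3% of them were also inside the band at day 9. When day 10 was left out the share was 85.4% of 6527. With day 8 left out it was 75.3% of 7400, and 21.5% were below 25 at day 8 whereas 3.19% were at 100 or more. Of the 18508 regions open in MEF day 0 and closed in iPSC, 46.5% were inside the band at day 8, 51.5% at day 9 and 51.4% at day 10, and of all autosomal regions 43.3%, 43.4% and 43.5%. The shares in the library left out were above both, but only its regions had to be in the band on the other days. This difference is therefore not a result about the members. Of the 18508 regions, 8601 were in the band at day 8, 9526 at day 9 and 9510 at day 10. Of these, 64.8%, 58.5% and 58.6% were in it on all of these days. Of all autosomal regions, 94448, 94622 and 94838 were in the band on these days and 61454 on all of them. The 18508 regions thus did not keep to the band more often than autosomal regions at large. Where day 8 departed from the band it was mostly towards lower levels.

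Day 12 was the only library whose own values had not chosen the members. At day 12, 4419 of the 5571 members (79.3%; 95% exact binomial interval 78.2% to 80.4%) were still between 25 and 100 normalised counts. Another 1118 (20.1%) had gone below 25, or 11.6% when members were chosen anew with equal autosomal totals, and 34 (0.610%; 0.423% to 0.852%) were at 100 or more. Of all autosomal regions 29.2% were below 25 at day 12, 47.5% were between 25 and 100 and 23.3% were at 100 or more, so that the share of members below 25 was under that background. The members ranged from 3.60 to 146 at day 12. Most members were still partly open at day 12, 2 days after the last intermediate of the rule, and a minority had reached the range of the iPSC library.

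Most members were lower at day 12 than at day 10, and rises of 2-fold or more were rare. The median ratio of day 12 to day 10 was 0.756 (quartiles 0.590 and 0.950), beside 0.954 over all autosomal regions (0.625 and 1.48). In the 18508 autosomal regions open in MEF day 0 and closed in iPSC, which include the members, it was 0.775 (0.574 and 1.07). A fall of this size was therefore not particular to the members. The ratio of the members was 0.835 with equal autosomal totals and 0.696 after quantile normalisation. A fall of 2-fold or more was seen in 758 members (13.6%), which is near the background of 14.6% of all autosomal regions and is not a result about the members. The share was 7.26% of members chosen anew with equal autosomal totals and 23.1% after quantile normalisation. The share over all autosomal regions under these scalings is not given, so neither value can be set beside the 14.6%. A rise of 2-fold or more was seen in 6 members (0.108%), beside 14.1% of all autosomal regions. It was seen in 3.79% of the autosomal regions open in MEF day 0 and closed in iPSC. Partly closed regions of any level in iPSC had 7.49%, so the low share in the members depends in part on the choice. In 52.8% of the members day 12 was below each of days 8, 9 and 10, beside 39.6% of all autosomal regions. The share was 44.3% in the regions open in MEF day 0 and closed in iPSC. In 76.8% of the members day 12 lay below day 10 and above iPSC, beside 34.7% and 63.8% in the same order. The low level in iPSC was part of the choice.

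The larger step came after day 12. Of the members, 75.9% were lower by 2-fold or more in iPSC than at day 12, beside 24.9% of all autosomal regions, and 34.9% by 4-fold or more, beside 11.3%. Since members had to be below 25 in iPSC, these shares describe the choice. In reads, the share of the members was 1.17-fold lower at day 12 than at day 10 and 3.88-fold lower in iPSC than at day 12.

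**Figure D2:**
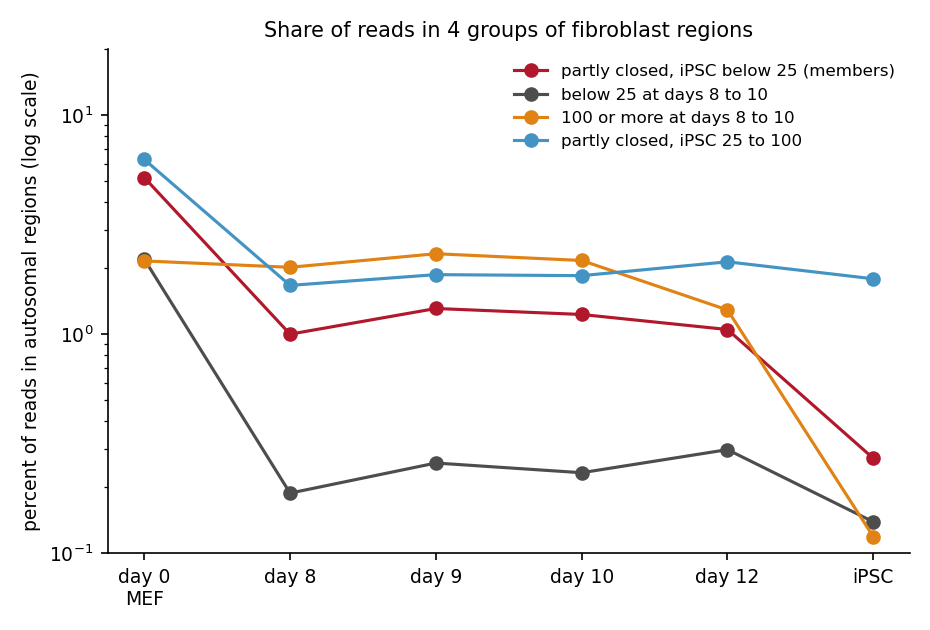
Percent of autosomal reads (log scale) in the members, in regions below 25 and in regions at 100 or more normalised counts at days 8 to 10 that were open in MEF day 0 and closed in iPSC, and in partly closed regions that stayed between 25 and 100 in iPSC, by library. The members go from 5.19% to 1.00% by day 8, stay between 1.00% and 1.31% through day 12 and end at 0.271%.

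Members at the extremes of day 12 differed strongly in their course. The region in row 175277 on chromosome 6 had the highest level at day 12, with 146 normalised counts (exact Poisson interval 124 to 170.1). Before that it had 1592 in MEF day 0 and 57.0, 95.7 and 91.6 in the earlier intermediates, and after it 17.5 in iPSC. Row 131848 on chromosome 3 had 179, 71.5, 70.7, 97.9, 127 and 8.77 from MEF day 0 to iPSC. Row 151387 on chromosome 4 had 1424, 56.1, 86.4, 95.6, 126 and 22.6 in that order. These 3 were picked for their level at day 12. The intervals at days 10 and 12 overlapped in row 131848 (81.5 to 117 and 107 to 149.7) and in row 151387 (79.3 to 114 and 106 to 149), and did not in row 175277 (75.7 to 109.9 and 124 to 170.1).

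At the low end, row 192592 on chromosome 7 had 127 normalised counts in MEF day 0 and 47.1, 39.3 and 35.5 in the earlier intermediates, then 3.60 on day 12 (0.981 to 9.22) and 5.01 in iPSC. Row 6584 on chromosome 1 had 661, 31.7, 30.0, 30.8, 5.40 and 6.27 in the same order, and row 63273 on chromosome 14 had 122, 28.1, 35.0, 26.1, 5.40 and 1.25. In these regions the second step was complete by day 12, within the counting error of the low values. They were picked as the extremes of 5571 values, and the lowest of them rests on 4 reads.

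The other fibroblast regions that ended closed had other levels at day 12. In the 3559 regions already below 25 at days 8, 9 and 10 the median was 17.1 at day 12, and 20.2% were at 25 or more. In the 2122 regions still at 100 or more on these days the median went from 202 at day 10 to 113 at day 12, and 59.6% were still at 100 or more. A fall of 2-fold or more from day 10 to day 12 was seen in 9.75% of the first group, 13.6% of the members and 38.5% of the second. A rise of 2-fold or more was seen in 14.9%, 0.108% and 0%. The share of reads moved the same way, since from day 10 to day 12 it changed by a factor of 1.27 in the first group, 0.852 in the members and 0.593 in the second. The members lay between the 2 other groups at day 12. The groups were formed on their levels at days 8 to 10, so their order at day 12 and their changes from day 10 are not independent of the choice. In the first group the changes also start from a median of 15.8 at day 10, where counts are low. Nothing is therefore read from that order, from the falls and rises, or from the change in distance after day 10.

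**Figure D3:**
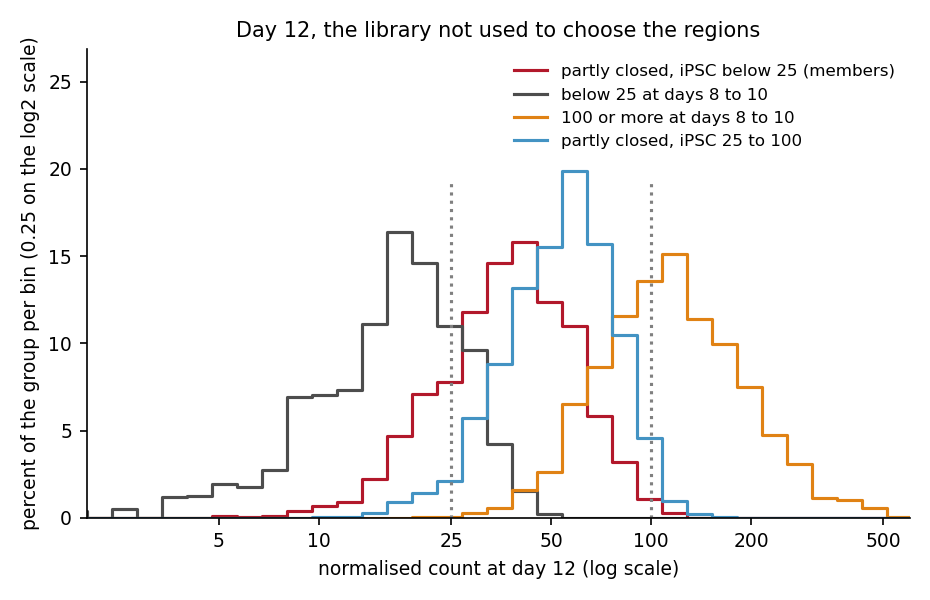
Distribution of normalised counts at day 12 (log scale; percent of each group per bin of 0.25 on the log2 scale) for the members, for regions below 25 or at 100 or more at days 8 to 10 that also closed in iPSC, and for partly closed regions between 25 and 100 in iPSC. The members have their median at 37.8, between 17.1 and 113 for the 2 other groups that closed, and below 54.9 for the partly closed regions that did not close.

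Partial closing by days 8 to 10 did not lead to one end. In all, 20846 autosomal regions had at least 100 normalised counts in MEF day 0 and lay between 25 and 100 at days 8, 9 and 10. In iPSC 5571 of them (26.7%; 95% exact binomial interval 26.1% to 27.3%) were below 25 and are the members. Another 8175 (39.2%) were still between 25 and 100 and 7100 (34.1%) were at 100 or more. The members were the group with the highest level in MEF day 0, with a median of 315 against 227 and 219. At day 8 their median was the lowest, with 41.6 against 48.9 and 62.4, whereas at day 9 it was 51.4, slightly above the 50.0 of the regions that ended between 25 and 100 and below the median of those that ended at 100 or more.

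These 3 groups stood apart at day 12, which had not been used to form them. The medians at day 12 were 37.8 for the members, 54.9 for the regions that ended between 25 and 100 and 93.6 for those that ended at 100 or more. At day 10 the medians were 49.8, 51.3 and 64.8, so that the third group already stood apart and the first and second were close, as at day 9. Regions of the same level at day 10 were therefore compared. At 40 to 60 normalised counts at day 10, the median at day 12 was 36.9 in the members (quartiles 28.8 and 45.9; 2102 regions), 53.1 in the second group (41.4 and 64.8; 3128 regions) and 81.9 in the third (66.6 and 99.9; 2171 regions). At 25 to 40 the medians were 26.1, 42.3 and 65.7, and at 60 to 100 they were 53.1, 67.5 and 104. Within each of these ranges of day 10 the median of the members was thus the lowest of the 3. The order of the medians was the same when the groups were formed anew with other scalings, at 46.2, 63.2 and 112 with equal autosomal totals and 37.7, 59.0 and 111 after quantile normalisation.

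The level in iPSC was also read from that at day 12. Of the 1434 partly closed regions that were below 25 at day 12, 78.0% were below 25 in iPSC and 0.767% were at 100 or more. Of the 16200 that were between 25 and 100 at day 12, 27.3% were below 25 in iPSC, 47.2% were between 25 and 100 and 25.5% were at 100 or more. Of the 3212 that had risen to 100 or more at day 12, 1.06% were below 25 in iPSC and 91.9% were at 100 or more. The middle range of day 12, which held 4419 of the members, thus led to all 3 levels.

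Members that had been more open in fibroblasts were more open at day 12. The median at day 12 was 34.2 for members at 100 to 200 normalised counts in MEF day 0, 36.9 at 200 to 400, 40.5 at 400 to 800 and 45.0 at 800 or more. The share below 25 at day 12 was 27.7% (95% exact binomial interval 25.6% to 29.9%), 21.9% (19.9% to 24.1%), 15.2% (13.3% to 17.3%) and 10.5% (8.67% to 12.6%). The mean over days 8 to 10 had medians of 48.3, 48.1, 48.4 and 49.8 over these ranges. The rule kept these days within a narrow band, so they are no contrast to day 12. At day 10 alone the medians were 48.2, 49.0, 50.5 and 51.3. The order at day 12 also held within ranges of day 10. Among members at 40 to 60 at day 10 the median at day 12 went from 34.2 to 43.2 between the lowest and the highest range of MEF day 0, among those at 25 to 40 from 24.3 to 31.5, and among those at 60 to 100 from 47.7 to 59.4.

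Across the 5571 members, which share their libraries and are not replicates, the Spearman correlation with MEF day 0 was -0.0726 for day 8 and 0.0189 for day 9, and it was 0.0800 for day 10 and 0.231 for day 12. The correlation between days 10 and 12 was 0.642 and that between days 8 and 12 was 0.0984. The narrow band of days 8 to 10 limits the first 3 of these values directly. Day 12 had no limit of its own, but 79.3% of the members were in the same band there. The correlations with MEF day 0 are therefore limited to different degrees, and their difference is not read as a change with time. The lengths of the regions were not used here, and a longer region collects more reads in every library.

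The same order by fibroblast level was seen in the other groups that closed. In regions below 25 at days 8 to 10 the median at day 12 went from 16.2 to 21.6 between the lowest and the highest range of MEF day 0, and in regions at 100 or more at days 8 to 10 it went from 92.7 to 149. In partly closed regions that ended between 25 and 100 it was 54.0, 55.8, 54.0 and 54.9 over the 4 ranges, and in those that ended at 100 or more 90.9, 96.3, 98.1 and 94.5. The relation to the fibroblast level at day 12 was therefore seen in the 3 groups that closed, and in the 2 that did not the medians had no steady order. Other levels also moved between the lowest and the highest range. The median in iPSC went from 11.3 to 13.8 in the members, but from 61.4 to 43.9 in regions that ended between 25 and 100. At day 10 the median was higher in the highest range in each group, as with 185 and 229 in regions at 100 or more at days 8 to 10. The difference between groups was not tested.

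**Figure D4:**
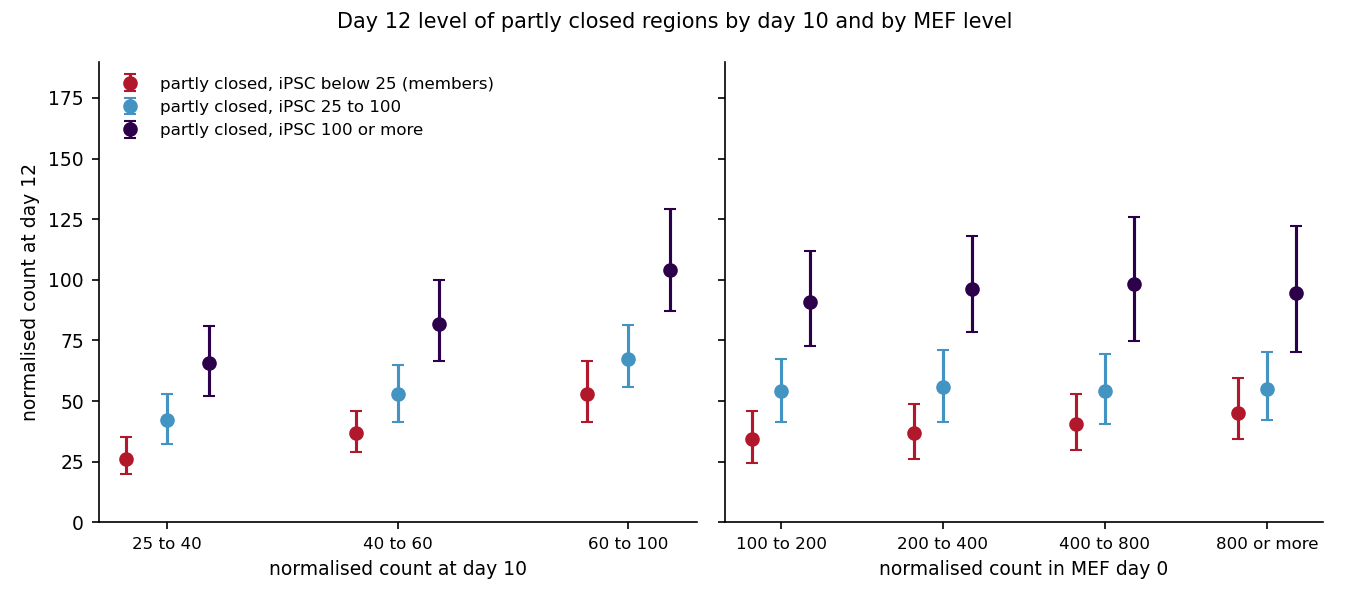
Normalised count at day 12 (points, median; bars, quartiles over regions) for partly closed regions in 3 ranges of day 10 (left) and 4 ranges of MEF day 0 (right), by their level in iPSC. The members are lowest in every range, at 36.9 for 40 to 60 at day 10, and go from 34.2 to 45.0 with the level in MEF day 0.

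Members were found on all 19 autosomes. There were 25.5 members per 1000 autosomal regions, from 21.1 on chromosome 5 (95% exact binomial interval 18.8 to 23.6; 306 members) to 31.5 on chromosome 6 (28.5 to 34.8; 391 members). Per 1000 regions open in MEF day 0 the lowest was chromosome 11 with 57.0 (51.0 to 63.4) and the highest chromosome 6 with 94.2 (85.5 to 103). The intervals of these extremes of 19 chromosomes did not overlap on either measure. They treat regions as independent, although members tended to lie in neighbouring rows, and the extremes were picked. No difference between chromosomes is therefore read from them. The level at day 12 varied little, with medians of 35.1 on chromosome 7 to 40.5 on chromosomes 11 and 19.

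The X chromosome did not enter the rule, and few of its regions followed the same course. At the same levels there were 45 X-linked regions among 5357, or 8.40 per 1000 (6.13 to 11.2), and 31.0 per 1000 X-linked regions open in MEF day 0 (22.7 to 41.3). At any level in iPSC, 363 of the 5357 X-linked regions were partly closed, and 1450 were open in MEF day 0. On autosomes 20846 of 218231 regions were partly closed and 75356 were open in MEF day 0. The X-linked share of partly closed regions was thus below the autosomal share on both measures. Of the 363 X-linked regions, 12.4% (9.19% to 16.2%) were below 25 in iPSC, beside 26.7% on autosomes. Each single autosome was above the X chromosome in this. The 45 regions had a median of 36.0 at day 12, close to the 37.8 of the members. The values sum both X chromosomes, and accessibility per chromosome was not measured in this table.

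The rows of the table also held information on which regions lie together. Rows were grouped by chromosome, and the log2 difference between MEF day 0 and iPSC had a Pearson correlation of 0.209 between neighbouring autosomal rows, 0.0548 at a distance of 20 rows and 0.00583 at 100 rows. This is the pattern of a table ordered by position, although positions were not given. Neighbouring rows were counted for each member they lay beside, so a row between members entered for each of them. Of the rows next to a member, 4.88% were members themselves, beside 2.55% of all autosomal regions. Most members stood alone in this respect, since 5041 had no member in the next row on either side, 488 formed pairs and 42 formed 14 runs of 3.

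Neighbouring rows that were not members were chosen by their place and by not meeting the rule, and were set beside all autosomal regions that did not meet it. Counted for each member beside them, there were 10598 such neighbours, which are not all distinct rows. Of these, 11.6% had at least 100 normalised counts in MEF day 0 and below 25 in iPSC. The share was 6.08% of all autosomal regions that were not members. At 2 to 5 rows the share was 9.49%, at 6 to 20 rows 7.90% and at 21 to 100 rows 6.64%. The median of the next rows was 54.2 in MEF day 0 and 28.8 in iPSC, beside 38.2 and 42.6. Loss of accessibility from MEF day 0 to iPSC was thus more frequent around members than elsewhere, and the excess faded with distance. The 1233 closing neighbours in the next rows were counted the same way and leave out the neighbours that were members. Of them, 28.3% were below 25 and 17.3% at 100 or more at days 8, 9 and 10. Among all closing regions outside the members the shares were 27.5% and 16.4%.

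Grouping in neighbouring rows was not particular to the members. The next row belonged to the same group 1.91 times as often as any autosomal row for the members, 2.96 times for the regions below 25 at days 8 to 10 and 3.93 times for those at 100 or more. For partly closed regions that ended between 25 and 100 the factor was 1.48, and for those that ended at 100 or more it was 1.82.

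**Figure D5:**
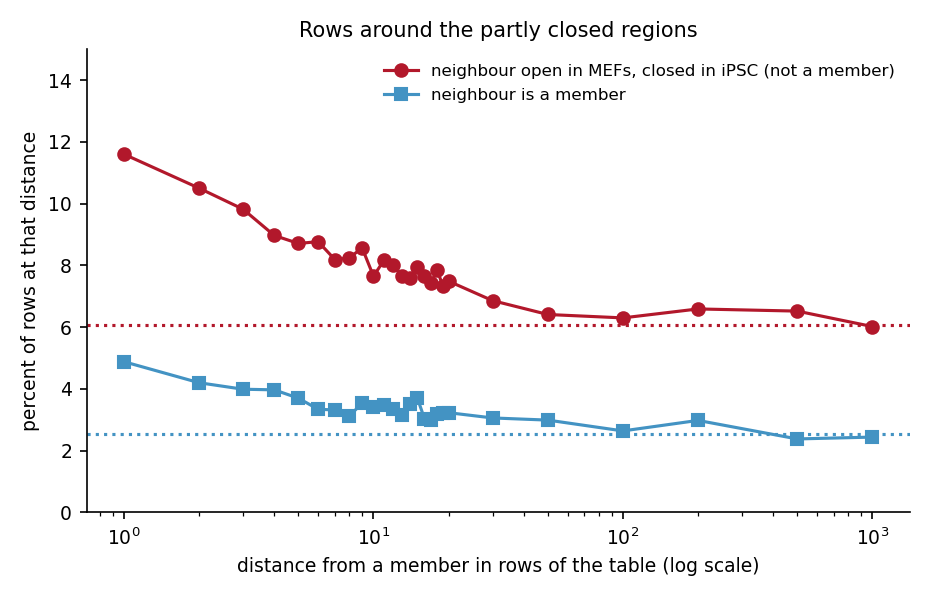
Percent of rows at a given distance from a member (log scale, in rows of the table, same chromosome) that were open in MEF day 0 and closed in iPSC without being members, and percent that were members, with the level of all autosomal regions as dotted lines. At 1 row the shares are 11.6% and 4.88%, and at 1000 rows 6.02% and 2.44%.

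The first runs of 3 show how unlike such neighbours could be at one time point. On chromosome 10, rows 24846, 24847 and 24848 had 1369, 257 and 141 normalised counts in MEF day 0. At day 8 they had 33.5, 81.4 and 34.4, at day 9 82.8, 42.8 and 61.4, and at day 10 49.0, 63.2 and 62.4. At day 12 they had 55.8, 37.8 and 64.8, and in iPSC 21.3, 1.25 and 8.77. The middle region was the highest of the 3 at day 8 and the lowest at day 9 and day 12, where its interval (27.2 to 51.1) overlapped that of the first region (42.8 to 71.5).

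On chromosome 11, rows 29708, 29709 and 29710 had 622, 145 and 556 in MEF day 0, and the middle region was also the lowest at each later time point. At day 12 they had 49.5, 25.2 and 46.8, and in iPSC 18.8, 6.27 and 17.5. Also on chromosome 11, rows 35459, 35460 and 35461 had 751, 1446 and 1014 in MEF day 0, and 84.2, 30.8 and 81.4 at day 8. By day 12 the order had turned, with 26.1, 43.2 and 27.0, and in iPSC they had 7.52, 7.52 and 18.8. The strongest fibroblast region of this run was the lowest at day 8 and the highest of the 3 at day 12, where its interval (31.9 to 57.3) overlapped those of the others (17.5 to 37.5 and 18.2 to 38.5).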

How the data were processed

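The authors ran the ENCODE pipeline for ATAC-seq on GRCm38/mm10, merged peaks and alignments into 1 count matrix with DiffBind (3.8, as in the submitters' processing notes), divided it by DESeq2 (1.21.22) size factors and deposited log2 values, not split by allele. Groups were the 6 labelled time points, with 1 library each. Normalised counts were 2 to the power of the deposited log2 value, minus 1. All values were whole multiples of 1 step per library (100.0% within 0.001), which gave reads and size factors. The lowest value was 1 read and may stand for 0. Depth was 22067333 to 32844411 reads in regions. Reads carried no molecular identifiers. With 1 library per time point, intervals cover counting error only. Members and comparison groups were chosen with earlier results of these data known. Named regions were the 3 members highest and lowest at day 12, highest in MEF day 0 and most even over days 8 to 10, the first 3 of the longest runs, and the nearest regions at each level. Changes were ratios of normalised counts. No significance test between libraries was made. The script that applies the rule was checked on simulated counts. The planted regions lay well inside every level, so that check does not cover regions near the edges. Alternatives were other scalings, levels and libraries in the rule. Scripts ran in Python 3.11.15, with pandas 2.3.3 and numpy 2.4.6 for the values, scipy 1.17.1 for intervals and matplotlib 3.10.9 for figures.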

Additional observations from a re-analysis of the deposited data

How the results depend on the processing

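The 5 summary values of the members were recomputed under 8 alternatives. The number of members, 5571, became 3186 after quantile normalisation, 1043 with exact Poisson intervals inside the levels, 8601 with the rule on day 8 only, 9510 with day 10 only and 20846 with no iPSC level. It was 4092 with equal autosomal totals, of which 3139 were also members. The share below 25 at day 12, 20.1%, became 11.6% with equal autosomal totals, 26.1% after quantile normalisation, 32.9% with levels of 80 and 20, 11.8% with 120 and 30, 15.9% with exact Poisson intervals, 27.6% on day 8 only, 25.9% on day 10 only and 6.88% with no iPSC level. The median at day 12, 37.8, became 46.2, 37.7, 31.5, 44.1, 39.6, 36.9, 34.2 and 59.4 in that order. The share lower by 2-fold or more at day 12 than at day 10, 13.6%, became 7.26% with equal totals, 23.1% after quantile normalisation, 14.8% with levels of 80 and 20, 15.6% with exact Poisson intervals, 14.6% on day 10 only and 4.62% with no iPSC level. The share lower by 2-fold or more in iPSC than at day 12, 75.9%, became 82.1% with equal totals, 62.0% after quantile normalisation, 74.6% with levels of 120 and 30, 93.1% with exact Poisson intervals, 71.5% on day 8 only, 72.3% on day 10 only and 22.6% with no iPSC level. Equal totals thus moved the share closed at day 12 and the share falling from day 10 to day 12 by over 1.5 times, and the cause was not tested. Shares over all autosomal regions are given for the deposited values only, so the shares under other scalings have no background beside them. The order of the groups at day 12 was recomputed under other scalings after the data were seen. No paired analysis was possible because each time point has 1 library. Depth limits single regions most in iPSC, where the median member had 10 reads.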
